A study of Homo sapiens with 4 samples.

Results

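Li-7 and HEP-G2, both established from human liver cancers, were compared with each other without a miRNA mimic, as the log2 value on the Li-7 negative control array minus that on the HEP-G2 negative control array. The comparison took every probe set with exactly 1 gene name, which gave 17709 of the 24351 probe sets of the table and 17687 different genes. Total RNA was hybridised to 4 Affymetrix arrays in the whole study, 1 for each line after the negative control and 1 for each line after a miR-4730 mimic given at 3 nM, and the cells labelled Negative-Control had been transfected by lipid reagent with a commercial control oligonucleotide. They were therefore not untouched cells, and both control arrays share that transfection. Li-7 had been grown in RPMI-1640 and HEP-G2 in DMEM, both with fetal bovine serum, so line and medium cannot be told apart. Each line is a single established culture, with no second line of its kind and no replicate culture here.

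Hepatocytes are the main secretory and metabolic cells of the liver. They make most plasma proteins, pack lipids into lipoproteins, detoxify amino nitrogen through the urea cycle and conjugate bile acids and drugs, under a network of transcription factors that includes the FOXA, CEBP and PROX families. Cholangiocytes, which line the bile ducts, share a fetal precursor with them (the hepatoblast) but carry ductal keratins, chloride channels and tight junction proteins. Liver tumour lines keep these programmes to different degrees, and HEP-G2 is widely used because it still secretes many plasma proteins.

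Values are on the deposited log2 scale, and a difference of 2 is 4-fold. A gene was counted as above background where its value passed that array's 95th percentile over 612 negative control probe sets, 8.72 on the Li-7 control and 8.35 on the HEP-G2 control. Where the dimmer array lay under its limit, the ratio is given as "at least", from the bright value to that limit. Of 17687 genes, 5747 were above background on both control arrays, 747 on the Li-7 array alone, 1219 on the HEP-G2 array alone and 9974 on neither. With 1 array a side no test of the control difference is possible, and the number of arrays limits the precision of every value.

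Promoter windows of 4 genes with a wide line difference are shown first, because they carry the letters of a liver factor's motif, in 3 genes seen above background in HEP-G2 alone and in 1 seen in Li-7 alone. The windows run from 250 bases before to 50 bases after a RefSeq start site (GRCh38.p14), read on the gene's own strand, with the motif in capitals. AHSG encodes the plasma protein fetuin-A (plus strand, chr3:186612810-186613109), PIPOX encodes a peroxisomal sarcosine and pipecolic acid oxidase (plus strand, chr17:29042891-29043190), SMLR1 encodes a small leucine-rich protein (plus strand, chr6:130827156-130827455) and CYP2B6 encodes a drug-metabolising cytochrome P450 (plus strand, chr19:40991032-40991331). All 4 were chosen after their values were seen, as the holders of the motif among the 100 largest differences in either direction.

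AHSG: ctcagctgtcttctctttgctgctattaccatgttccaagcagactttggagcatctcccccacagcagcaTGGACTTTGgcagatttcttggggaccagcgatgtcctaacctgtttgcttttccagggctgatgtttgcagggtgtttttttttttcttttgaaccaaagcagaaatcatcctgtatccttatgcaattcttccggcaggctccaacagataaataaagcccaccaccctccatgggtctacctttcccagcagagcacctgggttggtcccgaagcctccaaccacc

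PIPOX: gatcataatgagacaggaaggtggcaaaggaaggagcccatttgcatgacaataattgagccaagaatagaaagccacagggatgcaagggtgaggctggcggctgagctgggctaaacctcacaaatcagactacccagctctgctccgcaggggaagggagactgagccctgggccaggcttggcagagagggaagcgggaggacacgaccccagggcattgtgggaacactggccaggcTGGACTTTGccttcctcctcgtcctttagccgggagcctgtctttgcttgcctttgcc

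SMLR1: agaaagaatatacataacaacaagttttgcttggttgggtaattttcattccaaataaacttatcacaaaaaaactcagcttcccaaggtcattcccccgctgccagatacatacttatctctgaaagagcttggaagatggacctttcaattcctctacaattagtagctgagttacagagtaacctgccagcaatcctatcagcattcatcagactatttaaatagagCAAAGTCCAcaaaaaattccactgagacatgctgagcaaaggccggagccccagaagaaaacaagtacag

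CYP2B6: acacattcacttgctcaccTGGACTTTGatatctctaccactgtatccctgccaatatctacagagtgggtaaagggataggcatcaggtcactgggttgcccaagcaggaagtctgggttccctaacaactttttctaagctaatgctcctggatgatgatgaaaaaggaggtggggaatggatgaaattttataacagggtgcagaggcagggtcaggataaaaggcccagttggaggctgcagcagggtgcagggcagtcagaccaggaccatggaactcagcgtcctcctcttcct

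The capitals match CAAAGTCCA, a form of the HNF4 site, on the gene's strand in SMLR1 and on the opposite strand in the others. On the control arrays AHSG was 4.22 in Li-7 against 17.45 in HEP-G2, PIPOX was 5.34 and 13.64, and SMLR1 was 3.95 and 13.91. CYP2B6 was the reverse, at 13.84 and 3.83. Each was under background in the line with the lower value. A window was in the table for 14250 of the named genes, and for genes with several start sites the first listed was read. The HNF4 form lay in 3 of 71 windows found among the 100 genes most in favour of HEP-G2 (4.23%) and in 1 of 83 among the 100 most in favour of Li-7 (1.20%), against 0.344% of all named genes. Among the genes of liver secreted proteins it lay in 1 of 22 windows. A form of the site of the epithelial GRHL factors, AACCGGTT, lay in none of these sets and in 0.14% of all named genes. These matches describe letters only. HNF4A itself was not analysed here.

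On the control arrays, 700 genes (3.96% of those named) were at least 4-fold higher in Li-7 with the brighter side above background, and 691 (3.91%) were at least 4-fold higher in HEP-G2. The dimmer side was under background for 509 of the 700 and 516 of the 691, so most of these were genes seen in 1 line alone. These calls, and the counts of list members below, use the measured difference, also where the dimmer value was under its limit. A called gene can therefore have a bounded ratio under 4-fold. With the dimmer array raised to its limit, the counts were 431 and 390. The ratio was bounded at 16-fold or more for 79 and 80 genes. At 2-fold the counts were 1555 and 1535. Without a background limit they were 1160 and 899, and with the limit at the 99th percentile they were 363 in each direction.

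**Figure D1:**
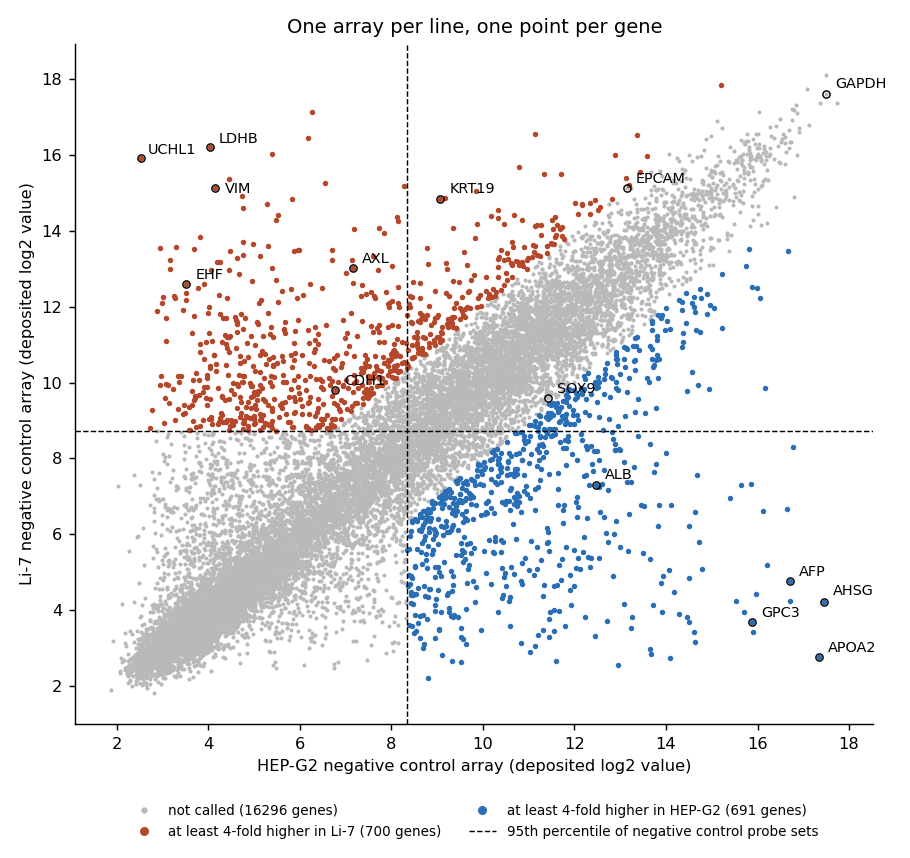
Deposited log2 value of every named gene on the HEP-G2 negative control array (horizontal) and the Li-7 negative control array (vertical), 1 point per gene, with the background limits of 8.35 and 8.72 as dashed lines. The 700 genes called for Li-7 (red) and the 691 called for HEP-G2 (blue) mostly lie where the other line is under its limit, and circles mark genes named in the text.

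The HEP-G2 side of this list was led by plasma proteins. APOA2, an HDL apolipoprotein, was 2.76 in Li-7 against 17.35 in HEP-G2, which is at least 395-fold. AHSG was at least 425-fold higher in HEP-G2, APOB at least 255-fold and AFP at least 253-fold. The 20 largest differences also held all 3 fibrinogen chains (FGA, FGB and FGG), transferrin (TF), the oncofetal proteoglycan GPC3, heparin cofactor II (SERPIND1), alpha-2-macroglobulin (A2M), orosomucoids (ORM1 and ORM2, near-identical copies whose probes may not be separable), alpha-1-antitrypsin (SERPINA1) and the carboxypeptidase CPB2. The others of the 20 were the liver enzymes MAT1A and HPD, the glucose transporter SLC2A2, the calcium sensor VSNL1 and the oestrogen-responsive gene GREB1. VSNL1, a gene best known from neurons, was 5.20 in Li-7 against 16.20 in HEP-G2.

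On the Li-7 side of this list, UCHL1, a ubiquitin hydrolase of neurons and neuroendocrine cells, was 15.93 in Li-7 against 2.52 in HEP-G2, at least 192-fold. LDHB, the heart-type lactate dehydrogenase subunit, was 16.22 and 4.04, at least 234-fold, and the intermediate filament gene VIM was 15.13 and 4.16, at least 110.2-fold. The others were CD9, ANXA1, CLMP, TM4SF18, TMSB4X, TAGLN2, VSIG1, H2BC12 (a histone with near-identical copies), the protease MMP7, TPD52L1, the drug-metabolising CYP2B6, the RNA-binding BICC1, RGS2, P3H2, SRI, the epithelial factor EHF and malic enzyme ME1. Every gene of the leading 20 in either direction was under background in the other line.

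The same difference was read on the mimic arrays, which are other arrays of the same lines and carry the mimic in addition. Of the 700 genes, 699 had the same sign there and 602 (86.0%) were again at least 4-fold higher in Li-7. Of the 691, all 691 kept the sign and 601 (87.0%) passed 4-fold again. None of either set was 4-fold in the opposite direction. Across 17687 genes, the line difference had a standard deviation of 1.60, against 0.53 for mimic minus control in Li-7 against 0.62 in HEP-G2. Genes are not independent replicates, and these spreads are across genes.

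A model with line and treatment over all 4 arrays (limma) was fitted to the 12381 genes whose mean over the arrays was at or above the 30th percentile. The line coefficient passed an adjusted p of 0.05 for 3003 genes (24.3%) in favour of Li-7 and 2560 (20.7%) in favour of HEP-G2. It leaves 1 residual degree of freedom per gene, to which limma adds 5.85 prior degrees of freedom pooled over all fitted genes. The p of the line coefficient therefore sets a gene's line difference against a disagreement between the 2 pairs of arrays that is mostly pooled over genes. It does not measure the spread between cultures. Of the 1391 genes called at 4-fold, 1388 passed with the same sign, which is no independent support, since the control arrays that made the calls are part of the fit. In the accounts of gene lists that follow, "passed the fit" refers to this model. Counts of members that passed are to be read beside the 24.3% and 20.7% of all fitted genes.

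**Figure D2:**
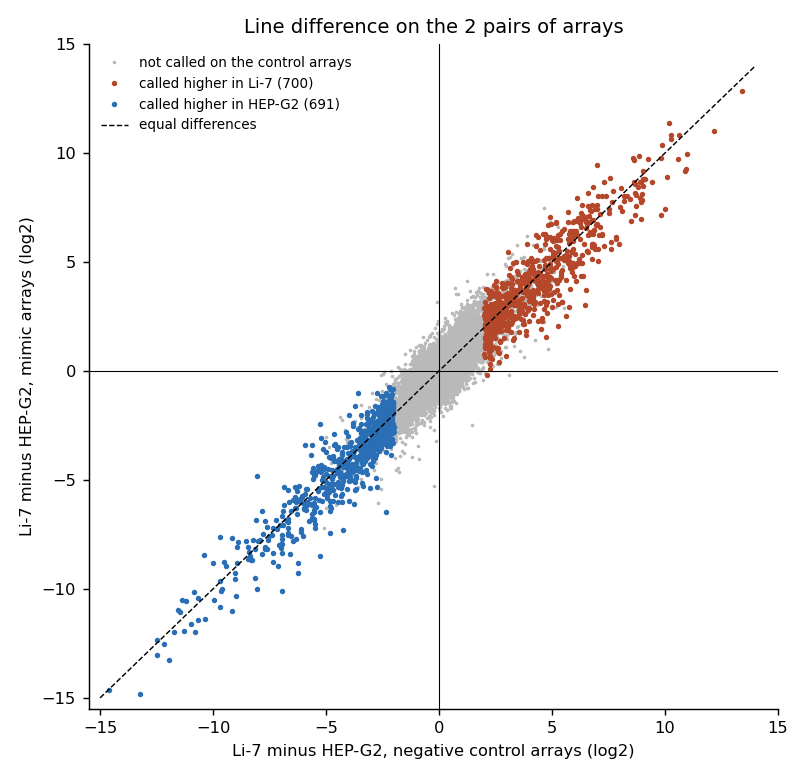
Li-7 minus HEP-G2 on the negative control arrays (horizontal) and on the mimic arrays (vertical) in log2 units, 1 point per gene, with the dashed line at equal differences. Of the genes called on the control arrays, 699 of 700 (red) and 691 of 691 (blue) kept their sign on the mimic arrays.

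Cell type markers were read next, as a check on the liver label of the lines. All 7 hepatocyte markers with a probe set (ALB, TTR, SERPINA1, APOA1, APOB, TF and FGB) were above background on the HEP-G2 control and none on the Li-7 control. Their median level was 5.08 in Li-7 against 15.5 in HEP-G2. Albumin (ALB), the main plasma carrier protein, was 7.30 on the Li-7 control against 12.46 on the HEP-G2 control, at least 13.4-fold. The fetal plasma protein AFP was 4.75 against 16.71, at least 253-fold. Of 4 hepatoblast markers, AFP, GPC3 and DLK1 were above background in HEP-G2 alone and SALL4 in neither. None of these 11 markers was therefore above background on the Li-7 control array, although its label is a liver cancer line. On the Li-7 mimic array, whose limit was 7.99, SERPINA1 (8.40) and SALL4 (8.03) were just above it. The liver plasma proteins AMBP (12.09) and RBP4 (9.85), which are not among the 11, were above background on the Li-7 control. In bulk RNA, fewer cells that express a gene and less RNA per cell cannot be told apart.

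All 5 cholangiocyte markers were above background in Li-7, and 3 of them were in HEP-G2. CFTR, the chloride channel of duct cells, was 10.06 in Li-7 against 3.66 in HEP-G2, and SPP1 (osteopontin) was 11.64 and 5.95. KRT19 was 14.84 and 9.07, at 54.5-fold the widest of the keratins measured on both sides, but on the mimic arrays its values were 14.61 and 11.66. SOX9, the duct and progenitor factor, was 9.59 in Li-7 against 11.41 in HEP-G2 and did not pass the fit (limma, adjusted p = 0.19).

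Other lineages were read here from a few markers each, and wider lists are counted below. None of the 5 gastric, 2 squamous, 4 blood and 4 endothelial markers with a probe set was above background on either control array. Of 5 intestinal markers, LGALS4 (galectin-4) was above it in Li-7 at 11.10 and VIL1 (villin) in HEP-G2 at 10.69, while CDX2, the intestinal master factor, was under it on both, at 7.47 and 5.54. Among mesenchymal markers VIM was above background in Li-7 alone, ZEB1 was above background in both at 12.12 and 11.34, COL1A2 was just above it in both, and TWIST1 and COL1A1 were under it in both.

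**Figure D3:**
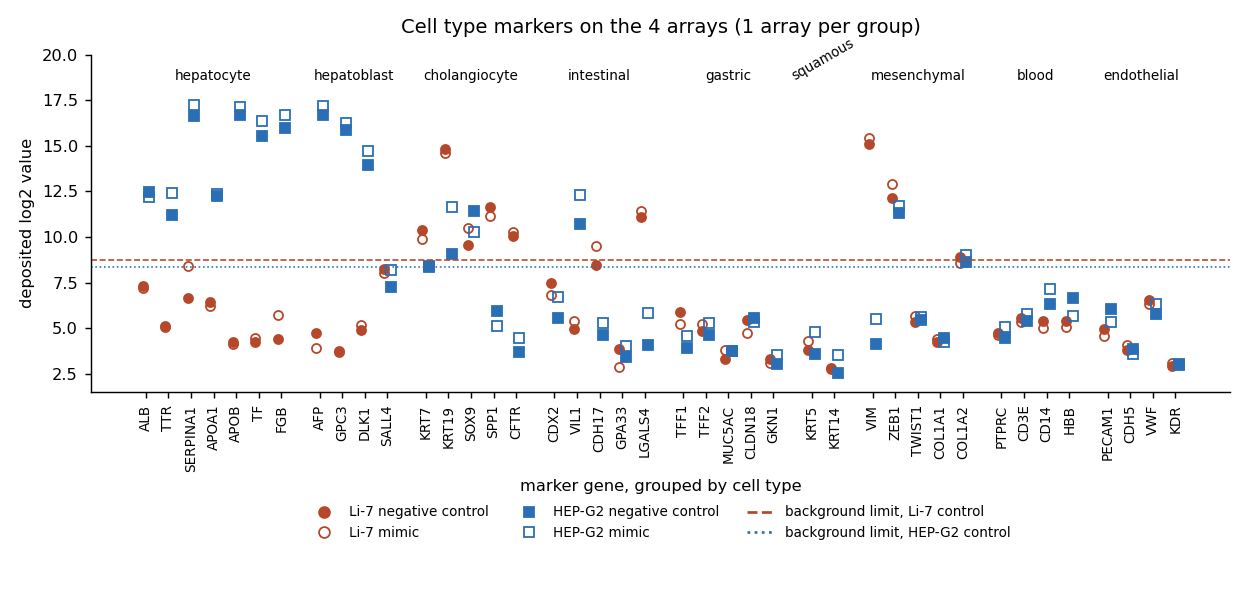
Deposited log2 values of the cell type markers on the 4 arrays, 1 array per group, with Li-7 as red circles, HEP-G2 as blue squares, negative control filled and mimic open, and the background limits of the 2 control arrays as lines. All 7 hepatocyte markers lie above the limit in HEP-G2 and under it on the Li-7 control, and all 5 cholangiocyte markers lie above it in Li-7.

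Wider gene lists were then counted, and the 3.96% and 3.91% of all named genes are the shares to set beside them. The lists were chosen with earlier results of these data known, so their shares are descriptive and give no independent support for a lineage. Medians took every member with a probe set, also members under background on both control arrays. Of 29 liver secreted proteins with a probe set, 20 were 4-fold higher in HEP-G2 and 1 in Li-7, with a median difference of -6.67 (Li-7 minus HEP-G2) against -0.03 over all genes. Of the 26 fitted, 23 passed for HEP-G2 and 2 for Li-7. TTR (transthyretin) was 5.08 in Li-7 against 11.19 in HEP-G2, HP (haptoglobin) was 4.91 and 12.85, and SERPINC1 (antithrombin) was 4.71 and 13.89. The members with signal in both lines were few: RBP4, the retinol carrier, was 9.85 in Li-7 against 16.17, and AMBP (bikunin) was 12.09 against 14.57. TFPI, a coagulation inhibitor that other cell types also make, was the member called for Li-7, at 14.75 against 12.34.

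The list of clotting and complement genes, which did not hold TFPI, gave no call for Li-7. Of 26, 13 were 4-fold higher in HEP-G2 and 0 in Li-7, and the median difference was -3.46. Of 21 fitted members, 20 passed for HEP-G2 and 0 for Li-7. Complement C3 was 5.81 in Li-7 against 14.73 in HEP-G2, protein C (PROC) was 5.53 and 12.19, and prothrombin (F2) was 3.87 and 9.37. CFB (complement factor B) was above background in both, at 9.06 and 11.79.

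Lipoprotein genes showed the same side. Of 12, 8 were 4-fold higher in HEP-G2 and 0 in Li-7, with a median difference of -5.36, and 9 of 12 passed the fit for HEP-G2. APOE was 7.32 in Li-7 against 15.87 in HEP-G2, APOA1 was 6.43 and 12.28, and APOC3 was 5.19 and 11.67. MTTP, which loads lipid onto apolipoprotein B, was 7.90 and 13.09. SAR1B, a vesicle GTPase that all secretory cells use, was 12.37 and 12.45.

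**Figure D4:**
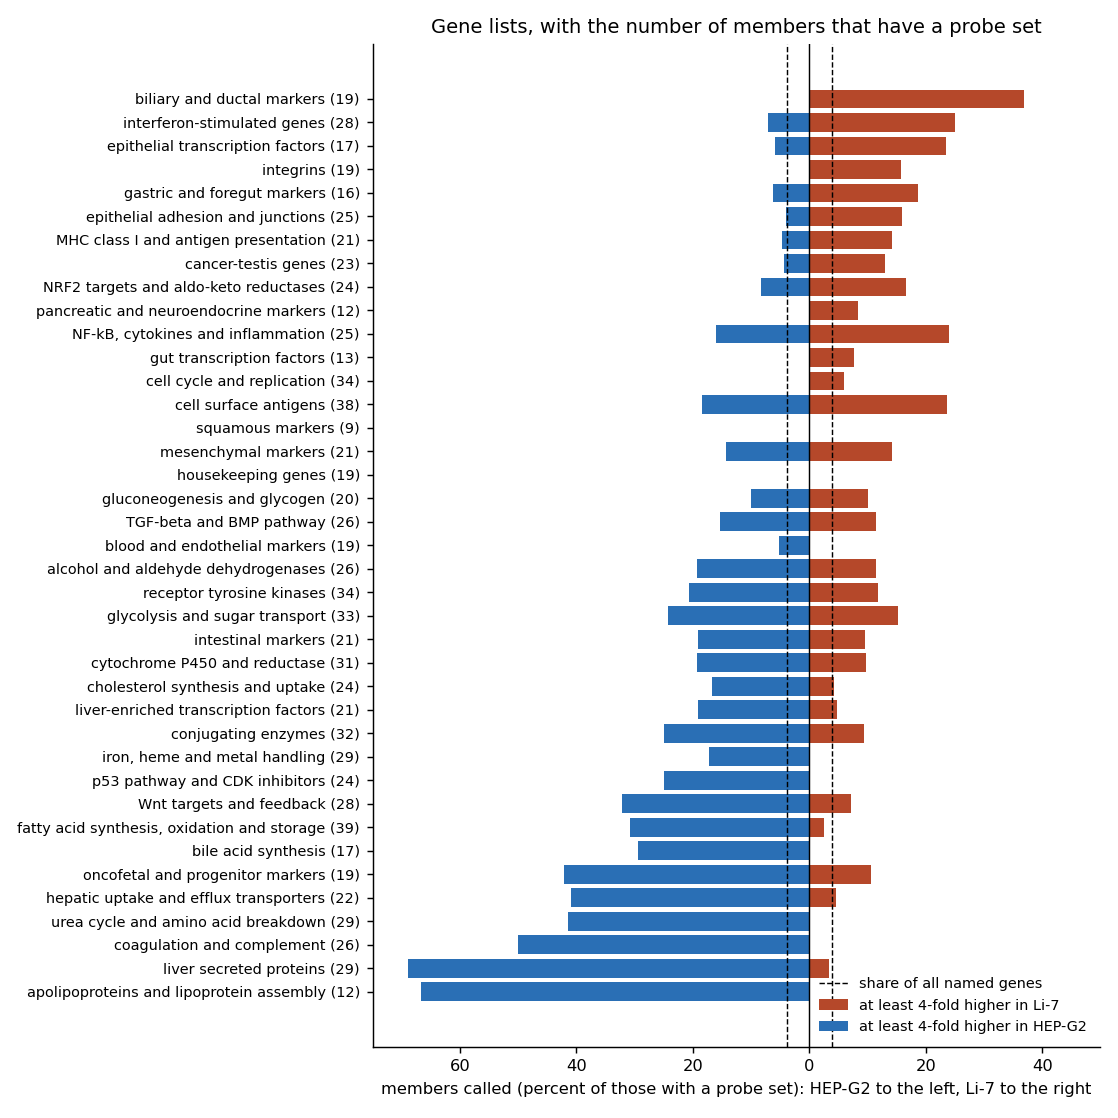
Members of each gene list that were at least 4-fold higher in Li-7 (red, to the right) or in HEP-G2 (blue, to the left) on the control arrays, in percent of the members with a probe set (their number in parentheses), with dashed lines at the 3.96% and 3.91% of all named genes. Lists of liver products lie at the bottom, and biliary and ductal markers, with 7 of 19 higher in Li-7, lie at the top.

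Of 21 liver transcription factors with a probe set, 9 were above background in Li-7 against 12 in HEP-G2, and 4 were 4-fold higher in HEP-G2 and 1 in Li-7. TBX3, a hepatoblast and Wnt-responsive T-box factor, was 5.55 in Li-7 against 13.17 in HEP-G2, at least 21.7-fold. NR0B2 (SHP), the corepressor of the bile acid response, was 8.70 and 12.82, PROX1 was 9.08 and 12.55, and CEBPA was 4.86 and 8.45. NR0B2 was just under background in Li-7. CEBPA in HEP-G2 was barely over the limit of that array and under the limit of the Li-7 array, so no ratio is given. PROX1 is the member of these 4 that was above background in both. On the mimic arrays 3 of the 21 were called for HEP-G2 and 2 for Li-7.

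Several factors of the hepatic network were present in Li-7 all the same. FOXA1, a pioneer factor of endodermal tissues, was 10.75 in Li-7 against 11.82 in HEP-G2, and NR5A2 (LRH-1) was 12.34 and 11.69. HHEX was 9.77 and 8.67, and HNF4G was 9.99 and 9.18. ONECUT2, a relative of HNF6 active in hepatoblasts and bile ducts, was 10.24 in Li-7 against 7.33 in HEP-G2, at least 3.72-fold. The coactivator PPARGC1A, chosen after its values were seen, was 5.93 in Li-7 against 12.21 in HEP-G2, at least 11.2-fold.

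Of 17 epithelial transcription factors, 4 were 4-fold higher in Li-7 against 1 in HEP-G2, and 12 were above background in neither line. The median difference was 1.19 on the control and 0.24 on the mimic arrays. EHF, an ETS factor of glandular epithelium, was 12.59 in Li-7 against 3.52 in HEP-G2, at least 18.9-fold, and its relative ELF3 was 10.01 and 4.73. KLF5, a factor of proliferating gut and duct epithelium, was 13.46 and 5.87, at least 34.5-fold, and the Notch effector HES1 was 10.20 and 3.97. ELF5 was the exception, at 3.57 in Li-7 against 8.45 in HEP-G2, barely over the background limit there.

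Whole factor families were also counted, and the ETS genes had the largest share called for Li-7 among them. Of 26 ETS genes, 6 were 4-fold higher in Li-7 (EHF, ETV1, ELF3, ETS1, ETV6 and ELF4) and 1 in HEP-G2 (ELF5), which is 23.1% against the 3.96% of all genes. ETV1 was 10.21 and 4.66, and ETS1 was 9.12 and 4.83, close to the limit in Li-7. ETV4, which reports on FGF and MAP kinase signalling, was 9.45 and 11.37.

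Several other families had few members above background. Of 23 HOX genes 1 was above it in either line, HOXB7, at 10.20 in Li-7 against 5.64 in HEP-G2. Of 25 LIM and NKX homeobox genes 0 were. Among nuclear receptors PPARG, the fat cell regulator, was 11.27 in Li-7 against 6.41 in HEP-G2, at least 7.59-fold, while NR6A1, a germ and stem cell receptor, was 8.50 and 12.85. TBX2 was 7.54 and 10.68, on the same side as TBX3. Of 482 zinc finger genes named ZNF, 4 were 4-fold higher in Li-7 (0.83%) and 6 in HEP-G2 (1.24%), both under the share of all genes. However, 335 of the 482 were above background in neither line and could not be called. On the mimic arrays 16 were called for Li-7 and 4 for HEP-G2. Of 410 fitted, 98 passed for Li-7 and 61 for HEP-G2, against 24.3% and 20.7% of all fitted genes. The gut factor list had 1 of 13 above background, MYB, at 9.28 in Li-7 against 2.78 in HEP-G2.

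Oncofetal genes, which are active in fetal liver and return in tumours, stood more often on the HEP-G2 side. Of 19 in a list that also holds progenitor markers, 8 were 4-fold higher in HEP-G2 and 2 in Li-7. The median difference was -1.83 on the control and -0.83 on the mimic arrays. GPC3 was 3.69 in Li-7 against 15.88 in HEP-G2, at least 142-fold, and DLK1 was 4.89 and 13.94. LIN28B, which blocks let-7 maturation, was 4.22 and 9.82, the let-7 target TRIM71 was 6.95 and 11.02, and the RNA-binding IGF2BP1 was 9.77 and 14.45. IGF2 was the reverse, at 12.27 in Li-7 against 7.34 in HEP-G2, at least 15.2-fold, and 13.50 and 6.74 on the mimic arrays.

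Markers often used for progenitor or stem-like tumour cells did not fall on a single side. CD24 was 14.85 in Li-7 against 5.82 in HEP-G2, at least 90.5-fold. EPCAM was 15.13 and 13.15, a 3.94-fold difference under the 4-fold limit that passed the fit (limma, adjusted p = 0.00092). PROM1 (CD133) was 11.24 and 11.04. LGR5 was 10.34 and 12.25. IGF2BP3 was above background in both, at 11.48 and 11.68, and HMGA1, the target gene named in the study's title, was 14.93 and 14.79 on the control arrays.

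Biliary and ductal markers favoured Li-7 in 7 of 19 cases and HEP-G2 in 0, with a median difference of 1.39. Of 18 fitted members, 12 passed for Li-7 and 2 for HEP-G2. BICC1, an RNA-binding protein of renal and biliary ducts, was 13.52 in Li-7 against 3.68 in HEP-G2, at least 36.1-fold. TSPAN8 was 11.90 and 3.45, and the tight junction claudin CLDN4 was 12.39 and 9.67. KRT7 was 10.38 and 8.44, and the simple epithelial keratins KRT8 and KRT18 were bright in both, at 17.12 and 16.51 in Li-7 and 16.03 and 14.99 in HEP-G2. GGT1 was among those that passed for HEP-G2, at 9.65 and 11.35.

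Of 16 gastric and foregut markers, 3 were 4-fold higher in Li-7 (18.8%) against 1 in HEP-G2, and 12 were above background in neither line. Of 21 intestinal markers, 2 were 4-fold higher in Li-7 (9.52%) against 4 in HEP-G2 (19.05%), and 14 were above background in neither. VSIG1, an adhesion protein of stomach epithelium, was 14.60 in Li-7 against 4.75 in HEP-G2, at least 76.2-fold, and ANXA10, also of stomach, was 11.24 and 4.37. AGR2 was 9.98 and 4.92. LGALS4 and the membrane mucin MUC13 (10.72 and 5.81) were the intestinal members on the Li-7 side. On the HEP-G2 side stood A1CF, the partner of the APOB mRNA editing enzyme, at 7.36 and 13.24, with VIL1, CEACAM1 (9.84 and 14.95) and CEACAM5 (7.53 and 12.22). The squamous list had 1 of 9 members above background, SFN, with 12.37 and 12.26. Of 12 pancreatic and neuroendocrine markers, UCHL1 was above background in Li-7 and the other 11 in neither line. The median difference of that list was -0.08.

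Mesenchymal genes split evenly, 3 for each line of 21, with a median difference of 0.03 that turned to -0.13 under median centring. VIM, LUM and S100A4 were the Li-7 members. FN1 (fibronectin, a plasma protein of hepatocytes as well) was 12.22 in Li-7 against 16.05 in HEP-G2, ACTA2 was 6.89 and 10.57, and TAGLN was 8.59 and 11.85. N-cadherin (CDH2) was 11.18 and 11.06. LYZ (lysozyme) was the blood or endothelial gene called among 19, at 13.47 and 16.66, and PTPRC, the defining leukocyte gene, was 4.72 and 4.44, under background in both.

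RNA of cell surface antigens was called for both lines. Of 38 surface antigens, 9 were 4-fold higher in Li-7 against 7 in HEP-G2. The tetraspanin CD9 was 15.36 in Li-7 against 4.45 in HEP-G2, at least 129-fold. The hyaluronan receptor CD44 was 13.60 and 5.31, at least 38.2-fold, and the SIRPA ligand CD47 was 12.37 and 3.53, at least 16.2-fold. CD81, a tetraspanin that hepatitis C virus uses for entry, was 12.62 and 7.16. VCAM1 was 10.69 and 5.61, and ALCAM was 11.99 and 8.16.

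RNA of several hepatocyte surface proteins was higher in HEP-G2. Both chains of the asialoglycoprotein receptor, which clears desialylated plasma proteins, were under background in Li-7: ASGR1 was 5.67 there and 11.82 in HEP-G2, and ASGR2 was 4.12 and 13.72. The ectopeptidases ANPEP (7.85 and 13.78) and DPP4 (11.33 and 14.74) were also higher in HEP-G2. The complement regulators CD55 and CD59 were above background in both, as was the transferrin receptor TFRC at 13.93 and 13.78.

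Integrins were called for Li-7 in 3 of 19 cases and for HEP-G2 in 0. ITGA3 was 13.71 in Li-7 against 4.77 in HEP-G2, ITGB8 was 11.76 and 3.70, and ITGB4, the hemidesmosome subunit, was 12.10 and 5.11. The common beta chain ITGB1 was 16.41 and 14.88. Of 50 cadherins and protocadherins, 5 were called for Li-7 (CDH1, CDH6, PCDH1, PCDH7 and PCDHB8) and 0 for HEP-G2.

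E-cadherin (CDH1) was 9.79 in Li-7 against 6.77 in HEP-G2, at least 2.72-fold, so RNA of both VIM and CDH1 was above background in Li-7. CLDN2, a pore-forming claudin of leaky epithelia, was 12.62 and 8.63, and CLDN1 was 15.97 and 13.58. Of the 25 genes of adhesion and junctions, 1 was called for HEP-G2, DSP (desmoplakin), at 11.40 and 14.09. Of the 20 fitted, 4 passed in favour of HEP-G2 and 11 in favour of Li-7, against 20.7% and 24.3% of all fitted genes. Of 24 claudins, 3 were called for Li-7 and 1 for HEP-G2, CLDN11, at 3.95 and 9.09, and CLDN11 was under background on the HEP-G2 mimic array. Tetraspanins were called for Li-7 in 5 of 22 cases and for HEP-G2 in 2. TSPAN1 was 12.40 and 5.61, and TSPAN7 was 8.91 and 11.99. Annexins were called in 4 of 12 and 2 of 12 cases, with ANXA1 at 16.03 and 5.40 and ANXA6 at 10.11 and 13.59.

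Growth factor receptors were called for both lines. The list of receptor tyrosine kinases had 34 genes, which include the coreceptor KLB. Of these, 4 were 4-fold higher in Li-7 against 7 in HEP-G2, KLB among the latter. The median difference of 0.07 turned to -0.09 under median centring. AXL was 13.02 in Li-7 against 7.16 in HEP-G2, at least 25.4-fold. MET, the hepatocyte growth factor receptor, was 14.37 and 11.57, EGFR was 10.66 and 8.50, and EPHA2 was 10.98 and 8.45. EGFR and EPHA2 were 1.21 and 1.06 higher in Li-7 on the mimic arrays, under the 4-fold limit there.

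The HEP-G2 side held coreceptors and receptors for FGF19, insulin and IGF. KLB, the beta-klotho coreceptor through which FGF19 reaches hepatocytes, was 4.52 in Li-7 against 11.90 in HEP-G2, at least 9.02-fold, and its partner FGFR4 was 11.20 and 13.05. ERBB3 was 9.80 and 12.95, IGF1R was 10.51 and 12.72, and MERTK was 10.63 and 12.91. INSR was 6.66 and 8.80, and FGFR3 was 4.64 and 8.72, both close to the limit in HEP-G2. Ephrin ligands EFNA5 (12.60 and 3.91) and EFNB2 (12.47 and 5.81) were on the Li-7 side and EFNA1 (5.08 and 9.68) on the HEP-G2 side.

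Antigen presentation leaned to Li-7, with 3 of 21 genes called there and 1 in HEP-G2. HLA-DMA, a class II peptide loader, was 13.02 and 5.40, and CD74, the class II invariant chain, was the reverse at 5.27 and 9.57. The immunoproteasome subunit PSMB9 was 11.99 and 8.41, and the peptide trimmer ERAP2 was 11.71 and 8.95. B2M was 16.02 and 14.08. Interferon-stimulated genes were called for Li-7 in 7 of 28 cases and for HEP-G2 in 2. IFI16, a DNA sensor, was 10.43 and 4.05, and IRF1 was 9.08 and 4.84, close to the limit in Li-7. On the HEP-G2 side MX2 was 4.76 and 10.83 and IRF9 was 6.70 and 9.12.

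Inflammatory genes were mixed, with 6 of 25 called for Li-7 and 4 for HEP-G2. The chemokine CCL2 was 11.82 in Li-7 against 4.26 in HEP-G2, at least 11.1-fold, IL18 was 12.60 and 6.22, and TNFAIP2 was 11.29 and 5.36. CCL20 was 5.35 and 9.61, and the NF-kB inhibitors TNFAIP3 (10.02 and 12.46) and NFKBIA (10.78 and 12.38) were higher in HEP-G2.

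Metabolic lists stood mostly on the HEP-G2 side. Urea cycle and amino acid genes were called for HEP-G2 in 12 of 29 cases and for Li-7 in 0, with a median difference of -1.95, and 19 of 22 fitted members passed for HEP-G2. MAT1A, the liver-specific methionine adenosyltransferase, was 2.73 in Li-7 against 14.09 in HEP-G2, at least 41.3-fold. HPD, an enzyme of tyrosine breakdown, was 3.41 and 14.62, at least 59.5-fold, and BHMT was 5.39 and 12.30. GLDC of the glycine cleavage system was 6.52 and 13.19.

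CPS1, which starts the urea cycle, was 4.41 in Li-7 against 8.47 in HEP-G2, just above the limit of that array but under the Li-7 limit of 8.72, so no ratio is given. ASS1 was above background in both, at 11.34 and 12.43. ASL was just under background in Li-7, at 8.68 against 10.25, at least 2.88-fold. Glutamate dehydrogenase (GLUD1) was bright in both, at 12.85 and 15.22.

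SLC2A2 (GLUT2), the low-affinity glucose transporter of hepatocytes, was 3.82 in Li-7 against 14.47 in HEP-G2, at least 53.5-fold, and SLC2A9, a urate and sugar carrier, was 4.32 and 10.43. SLC2A3 (GLUT3), whose probes may share sequence with its near copy SLC2A14, was 4.85 and 14.51. SLC2A1 (GLUT1) was bright in both, at 12.51 and 15.87. Of 33 genes of glycolysis and sugar transport, 5 were called for Li-7 and 8 for HEP-G2.

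The 5 on the Li-7 side were enzymes of glycolysis and its regulation. LDHB was above background in Li-7 alone, while LDHA was 16.51 and 16.28. PFKP, the platelet phosphofructokinase, was 14.19 and 9.87, PFKM was 10.67 and 7.81, PFKFB3 was 9.91 and 4.94 and HK1 was 9.04 and 6.46. HK1 was close to the limit in Li-7. PFKL, the liver isoform, was 10.37 and 10.63. PKLR, the liver pyruvate kinase, was 5.10 in Li-7 against 8.77 in HEP-G2, close to the limit there, and PKM was 16.13 and 14.83. GAPDH was 17.62 and 17.50 and ENO1 was 17.10 and 16.86.

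Genes of gluconeogenesis and glycogen were called for both lines. FBP1, the fructose bisphosphatase of gluconeogenesis, was 10.16 in Li-7 against 4.78 in HEP-G2, at least 3.51-fold, and 9.14 and 4.81 on the mimic arrays. The mitochondrial PCK2 was the reverse, at 5.84 and 10.41. Of 20 genes of the list, 2 were called for each line on the control arrays, against 2 for Li-7 and 5 for HEP-G2 on the mimic arrays. Of 15 fitted members, 3 passed in favour of Li-7 and 6 in favour of HEP-G2, against 24.3% and 20.7% of all fitted genes. The median difference was -0.47 on the control and -0.77 on the mimic arrays.

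Lipid genes favoured HEP-G2. Of 39 genes of fatty acid synthesis, oxidation and storage, 12 were called for HEP-G2 and 1 for Li-7, with a median difference of -1.12. CIDEB, a lipid droplet protein of hepatocytes, was 6.59 in Li-7 against 14.64 in HEP-G2, at least 60.3-fold, and GPAM was 7.17 and 12.73. FABP1, the liver fatty acid-binding protein, was 3.28 and 9.53, and its epidermal relative FABP5 was 10.52 and 8.98. CPT1A, the entry enzyme of mitochondrial fatty acid oxidation, was the Li-7 member, at 10.95 and 7.08.

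Cholesterol genes were above background in nearly all cases, 20 of 24 in Li-7 against 22 in HEP-G2. Of the 24, 4 were called for HEP-G2 and 1 for Li-7 on the control arrays, with a median difference of -0.98. On the mimic arrays 11 were called for HEP-G2 and the median was -1.97, and those arrays differ from the control arrays by the mimic as well. HMGCS1 was 11.76 and 13.24, IDI1 was 12.91 and 14.44, and the acyltransferase SOAT2 of liver and intestine was 4.29 and 8.97. INSIG1, which holds SREBP in the endoplasmic reticulum, was the Li-7 member at 8.85 and 4.87.

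Bile acid genes were called for HEP-G2 in 5 of 17 cases and for Li-7 in 0. CYP27A1, of the alternative synthesis route, was 4.15 in Li-7 against 13.09 in HEP-G2, at least 20.6-fold. ACOX2 was 5.58 and 9.55, and AMACR was 9.04 and 12.75. Liver transporters were called for HEP-G2 in 9 of 22 cases and for Li-7 in 1. SLCO2B1 was 3.28 and 11.44, the citrate carrier SLC13A5 was 6.46 and 12.06, and the canalicular pump ABCC2 (MRP2) was 12.48 and 15.99. ABCC3 (MRP3), which pumps toward the blood, was the reverse at 12.66 and 9.47. Among all 365 solute carriers, 43 (11.8%) were called for HEP-G2 and 12 (3.29%) for Li-7.

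Drug-metabolising enzymes were split by member. Of 31 cytochromes P450 and reductases, 3 were called for Li-7 and 6 for HEP-G2. CYP2B6 was 13.84 in Li-7 against 3.83 in HEP-G2, at least 45.1-fold, and 13.13 and 5.70 on the mimic arrays. CYP3A5 was 11.98 and 7.96 and CYP2S1 was 13.56 and 8.78. CYP24A1, which degrades vitamin D, was 4.49 and 14.18, at least 43.8-fold for HEP-G2, and the aromatase CYP19A1 was 5.15 and 10.62.

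Of 19 glutathione S-transferases, 2 were 4-fold higher in Li-7 against 6 in HEP-G2 (31.6%), with a median difference of 0.02. GSTP1, the pi-class enzyme of bile duct and many tumours that is low in hepatocytes, was 14.41 in Li-7 against 5.53 in HEP-G2, at least 66.9-fold. The alpha-class GSTA1 and GSTA2, near-identical copies, were 4.24 and 4.91 in Li-7 and 10.56 and 11.11 in HEP-G2. GSTA4 was 7.55 and 10.90, and GSTO2 was 8.11 and 11.05, both under background in Li-7. GSTM3 was 13.13 and 8.81, and MGST1 was 15.86 and 15.85. The phenol sulfotransferase SULT1A1 was 6.03 and 12.69.

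NRF2 targets were above background in most cases in both lines, 20 of 24 in Li-7 against 19 in HEP-G2. NQO1, the classic target, was 15.68 and 15.70, and TXNRD1 was 16.01 and 14.50. ME1 was 12.29 in Li-7 against 3.25 in HEP-G2, at least 15.4-fold, and AKR1C2 and AKR1C3, whose sequences are close, were 14.27 and 16.54 in Li-7 and 10.85 and 13.37 in HEP-G2. HMOX1 was the reverse, at 6.86 and 10.78.

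Of 29 iron, heme and metal genes, 22 were above background in HEP-G2 and 18 in Li-7, and 5 were called for HEP-G2 and 0 for Li-7. HAMP (hepcidin), the liver hormone that closes the iron exporter, was 4.93 in Li-7 against 11.90 in HEP-G2, at least 9.06-fold, and TF was 4.24 and 15.54. FTL was 16.71 and 16.91 and MT2A was 16.34 and 16.73. Alcohol and aldehyde dehydrogenases were called in 3 of 26 cases for Li-7, with ALDH1A2 and ALDH1A3 of retinoic acid synthesis (10.77 and 10.18 against 5.91 and 6.22), and in 5 for HEP-G2, with ADH6 at 5.79 and 12.74.

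**Figure D5:**
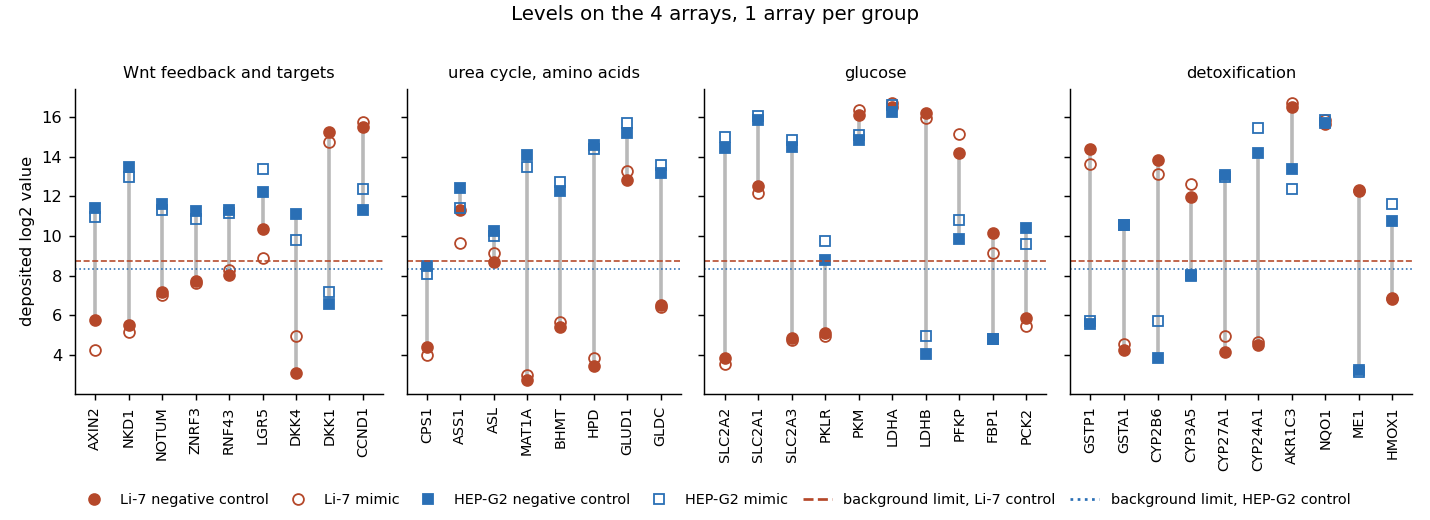
Deposited log2 values of Wnt, amino acid, glucose and detoxification genes on the 4 arrays, 1 array per group, with Li-7 as red circles, HEP-G2 as blue squares, negative control filled, mimic open, grey bars joining the 2 control values and the background limits as lines. SLC2A2, MAT1A and HPD lie above the limit in HEP-G2 alone, and LDHB, GSTP1 and ME1 in Li-7 alone.

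Wnt feedback genes are direct targets of beta-catenin that dampen the pathway, and their level is a common readout of it. Of 28 Wnt genes, 9 were called for HEP-G2 and 2 for Li-7. AXIN2 was 5.76 in Li-7 against 11.40 in HEP-G2, NKD1 was 5.50 and 13.50, and NOTUM was 7.19 and 11.64. The ubiquitin ligases ZNRF3 and RNF43 were 7.73 and 8.05 in Li-7 and 11.26 and 11.31 in HEP-G2. GLUL, a target in perivenous hepatocytes, was 12.22 and 14.77.

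The Li-7 members were DKK1 and CCND1. DKK1, a secreted Wnt inhibitor, was 15.25 in Li-7 against 6.55 in HEP-G2, at least 119.5-fold, and its relative DKK4 was the reverse at 3.05 and 11.13. Cyclin D1 (CCND1) was 15.49 and 11.33. CTNNB1 itself was 13.83 and 13.10, and APC was 10.46 and 10.26.

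TGF-beta and BMP genes were mixed, with 3 of 26 called for Li-7 and 4 for HEP-G2, and with a median difference of 0.11 that turned to -0.04 under median centring. SMAD3 was 12.70 in Li-7 against 9.73 in HEP-G2, and the receptor TGFBR2 was 13.50 and 13.48. The BMP targets ID2 and ID3 were 9.12 and 4.14 in Li-7 and 13.10 and 11.92 in HEP-G2. ID1 was 11.91 and 13.63. BMP4 was bright in both, at 16.19 and 15.99.

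SMAD4, the shared partner of TGF-beta and BMP receptor SMADs, was chosen after its values were seen. It was 5.38 on the Li-7 control and 5.41 on the Li-7 mimic array, against 12.09 and 12.21 in HEP-G2, so both Li-7 values were under background and the ratio was at least 10.3-fold on the control arrays.

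Genes of the p53 pathway and CDK inhibitors were called for HEP-G2 in 6 of 24 cases and for Li-7 in 0, and 13 of 24 passed the fit for HEP-G2 and 1 for Li-7. CDKN1A (p21) was 8.94 in Li-7 against 11.24 in HEP-G2, SESN1 was 6.87 and 9.51, and TIGAR was 7.99 and 10.21. MDM2 was 11.83 and 12.77, and BAX was 11.91 and 11.73. CCNE1 and CCND2 were in the same list as cyclins and were also higher in HEP-G2, at 8.15 and 10.40 and at 6.32 and 8.73.

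Of 34 cell cycle genes, 33 were above background in Li-7 against 31 in HEP-G2, 2 were called for Li-7 (E2F1 and MCM6) and 0 for HEP-G2, and the median difference was 0.71. On the mimic arrays 16 were called for Li-7 and the median was 1.75, so the fitted counts for this list (22 for Li-7, 0 for HEP-G2) rest in part on the mimic arrays. MKI67 was 14.50 and 13.20 on the control arrays, TOP2A was 14.45 and 13.18, and PCNA was 13.95 and 14.49. TERT was under background in both lines, at 4.04 and 5.03. NNMT, which methylates nicotinamide, was under background on both control arrays.

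Cancer-testis genes were called for Li-7 in 3 of 23 cases, all MAGEA genes (MAGEA2, MAGEA3 and MAGEA6), whose sequences are near-identical and may not be independent. MAGEA6 was 10.43 in Li-7 against 5.41 in HEP-G2, and MAGEA8 was 9.30 and 9.20. MAGED1 was higher in HEP-G2, at 9.01 and 12.07.

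Genes that all cells need differed little. Of 52 ribosomal protein genes 0 were called in either direction, with a median difference of -0.04. Of 75 respiratory chain subunits, 1 was called for each line, NDUFB1 at 12.48 and 10.21 for Li-7 and UQCR10 at 11.79 and 13.82 for HEP-G2. Of 19 housekeeping genes 0 were called, but 14 were higher in Li-7 and 5 in HEP-G2. Their median was 0.35 against -0.03 over all genes. Of the 19, all fitted, 6 passed for Li-7 and 0 for HEP-G2, against 24.3% and 20.7% of all fitted genes. The widest were B2M and CHMP2A (11.80 and 9.88), at 1.94 and 1.92 log2 units. Differences of this size occurred among genes often taken as constant.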

How the data were processed

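Total RNA of 4 cultures was measured on Affymetrix arrays, 1 array per line and treatment, with groups taken from the sample titles. The deposited table holds 1 summarised log2 value per probe set and array, made by the authors with Affymetrix Expression Console and the Transcriptome Analysis Console, per the submitters' processing notes. How background was corrected, how arrays were normalized and the base of the logarithm: not given in the sources used here. Values reached 18.3 and were read as log2, so every fold is on the deposited scale. They were used without further normalization.

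Gene names came from the platform annotation, brought up to date through RefSeq (GRCh38.p14), and for the 20 genes with several probe sets the brightest on average was taken. Calls on the control arrays needed 4-fold and the brighter side above the 95th percentile of 612 negative control probe sets. The line coefficient was fitted with limma 3.58.1 in R 4.3.3 (lmFit and eBayes on line and treatment, Benjamini-Hochberg threshold 0.05, checked on simulated data) over 12381 genes, with adjusted p over all of them.

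The 39 gene lists (1042 entries, 1000 different genes, 883 with a probe set) and 29 families were described by counts and medians without a set test. Named genes were HMGA1, the 20 largest differences per direction, up to 4 members per list or family and direction, and fixed lineage genes, and others were named after their values were seen. The members and lists were chosen with earlier results of these data known. Entries with no probe set were not analysed here, 1 item is not reported here, and Y-linked genes were left out of the named genes. The alternatives tried were other scalings (quantile, median and cyclic loess), other fold and background limits, other filters and eBayes settings, and a model without treatment.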

Additional observations from a re-analysis of the deposited data

Results flagged for a closer look

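Probe sets with no gene name were outside the comparison and also carried a line difference. Of 3739 such probe sets, 58 (1.55%) were at least 4-fold higher in Li-7 on the control arrays with the brighter side above background, and 69 (1.85%) were at least 4-fold higher in HEP-G2. Both shares were under those of the named genes, 3.96% and 3.91%. What these probe sets measure was not tested.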

How the results depend on the processing

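Counts of genes called on the control arrays depended on the fold and the background limit. For Li-7 and HEP-G2 they were 1555 and 1535 at 2-fold, 442 and 393 at 8-fold, 363 and 363 with the background limit at the 99th percentile, and 431 and 390 with the dimmer array raised to its limit. Without a background limit the Li-7 count was 1160. Quantile normalization, median centring, cyclic loess and averaged probe sets left both counts within 1.5 times, with 646 to 700 for Li-7 and 690 to 770 for HEP-G2. The counts from the line coefficient stayed within 1.5 times under each of the 9 alternatives, from 2025 to 3183 for Li-7 and from 1766 to 3152 for HEP-G2, and median centring turned the larger share to HEP-G2 (2519 against 3152). It moved the median of all genes by -0.16, the other scalings by -0.02 and 0.04.

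Of 807 values for named genes called at 4-fold (269 genes under 3 scalings), 806 kept direction and call and 0 reversed, and NR1D2 fell under 4-fold with median centring, at 1.88. Set medians near 0 changed sign in 18 of 204 cases, and median centring gave -0.13 for mesenchymal markers, -0.09 for receptor tyrosine kinases, -0.04 for TGF-beta and BMP genes and -0.02 for gut transcription factors.

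The line coefficient already pairs the lines within treatment, through its treatment term. With 1 array per group there was no replicate number to block on and no replicate to leave out. Background binding limits the low side: 9974 of 17687 genes were under the limit on both control arrays and could not be called at 4-fold. Such genes did enter the medians of lists and families. They could also enter the fit, whose filter on the mean over the arrays was 4.90. Ratios against a dim array are lower bounds.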
